A study of Mus musculus with 12 samples.

Results

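The genes described are 8 that mark Langerhans cells or serve antigen presentation by major histocompatibility complex (MHC) class II: Cd207, Epcam, H2-Aa, H2-Ab1, H2-Eb1, H2-DMa, Cd74 and Ciita. They were chosen by name, every probe designed against one of their RefSeq transcripts was taken, and all 8 were among the 16187 genes tested, of 20883 with a probe. Skin RNA from 12 male mice of a mixed C57Bl6/129Sv background was hybridised to 12 one-colour arrays, 1 per mouse, on day 12 after plucking, to study what Sox4 contributes to hair regrowth. The mice were wild type (WT) or lacked Sox4 in the skin by conditional knockout (cKO), and the sources used here do not name the Cre driver. Each genotype had 3 mice in Exp 1, aged 68 to 72 weeks, and 3 in Exp 2, aged 16 to 20 weeks, so an effect of age and one of the experiment cannot be told apart. All 12 mice had been plucked, so no unplucked skin enters any comparison.

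Langerhans cells are the dendritic cells of the epidermis. They carry langerin, the lectin encoded by Cd207 that forms their Birbeck granules, and the adhesion molecule EpCAM, which the epithelium of the hair follicle also makes. Class II molecules are pairs of an alpha and a beta chain (H2-A from H2-Aa and H2-Ab1, H2-E with its beta chain from H2-Eb1) that show peptides to CD4 T cells. The invariant chain, encoded by Cd74, fills their groove until the H2-DM dimer, whose alpha chain is H2-DMa, exchanges its remnant for a peptide. CIITA is the coactivator that switches these genes on. It does not bind DNA itself but docks on factors that sit on the X and Y boxes of class II promoters. Dendritic cells, macrophages and B cells also carry class II, and in whole skin fewer cells of a type and less RNA per cell cannot be told apart.

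The promoters of H2-Aa and H2-Eb1 are shown because they hold letters of both boxes in the order found in class II promoters, and that of Cd207 because it holds neither. Each is the stretch from 130 to 11 bases before the RefSeq start site (GRCm38.p6), 5′ to 3′ on the gene's strand. Capitals mark the letters CTNGCAACT (X1 letters, part of the X box) and CTGATTGG (Y letters, which include the reversed CCAAT motif). H2-Aa lies at chr17:34287834-34287953 on the minus strand, H2-Eb1 at chr17:34305737-34305856 on the plus strand and Cd207 at chr6:83677868-83677987 on the minus strand.
H2-Aa: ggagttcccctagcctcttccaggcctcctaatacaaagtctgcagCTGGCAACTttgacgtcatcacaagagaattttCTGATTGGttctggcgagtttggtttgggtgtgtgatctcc
H2-Eb1: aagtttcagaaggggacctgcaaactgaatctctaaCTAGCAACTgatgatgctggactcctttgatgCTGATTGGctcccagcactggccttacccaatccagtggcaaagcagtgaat
Cd207: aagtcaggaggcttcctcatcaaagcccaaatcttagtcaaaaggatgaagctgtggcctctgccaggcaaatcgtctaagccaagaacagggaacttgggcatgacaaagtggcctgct

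The X1 letters began 84 bases before the start site of H2-Aa and 94 bases before that of H2-Eb1, and the Y letters 51 and 62 bases before. Both motifs were searched on both strands of windows from 250 bases before to 50 after each start, after these sequences had been read, and the motifs do not overlap one another. Of 32851 RefSeq promoters, 0.898% held the X1 letters, 4.1% the Y letters and 0.0487% (16 promoters) both. The windows of Cd207, Epcam and H2-DMa held neither, which says only that these exact letters are not in those windows. Among the other class II presentation genes with a promoter in the table, H2-Oa held the Y letters 46 bases before its start and H2-Eb2 held them 103 bases before. H2-Ab1, Cd74 and Ciita were not matched in the promoter table.

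Sox4, the deleted gene, was lower in the skin of all 6 cKO mice than in that of any WT mouse, with an averaged log2 difference of -5.54 (SE 0.12, limma adjusted p = 3.8e-09). The probe used for Sox4 was not well above background in 2 of the 6 cKO mice (mice 5 and 6), so the size of the difference rests in part on signals at background. A dimmer probe of Sox4, well above background on 6 of 12 arrays, gave -6.3. All 8 member genes had a probe well above background on all 12 arrays, and no spot was saturated. H2-Ab1 had 2 probes, of which the brighter was used, and the other 7 genes had 1 each. The 75th percentile of signal, to which every level below is scaled on the log2 scale, lay between 364.4 and 553.7 intensity units across arrays, with 53.9% to 62.6% of probes well above background. The 4 groups differed in more than genotype and age. The mean log2 level of 10 skeletal muscle genes ran from -4.69 to -3.43 in WT mice of Exp 1 and from -3.39 to 0.10 in cKO mice of Exp 1. It ran from -1.37 to 5.15 in WT mice of Exp 2, where WT mouse 5 was the low one, and from 4.12 to 5.40 in cKO mice of Exp 2. By the barcodes in the scanner headers, the arrays lay on 3 slides, with cKO mouse 3 alone on the third. Values within slides 1 and 2 are therefore given beside the main results. The mice are separate animals per their labels.

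**Figure D1:**
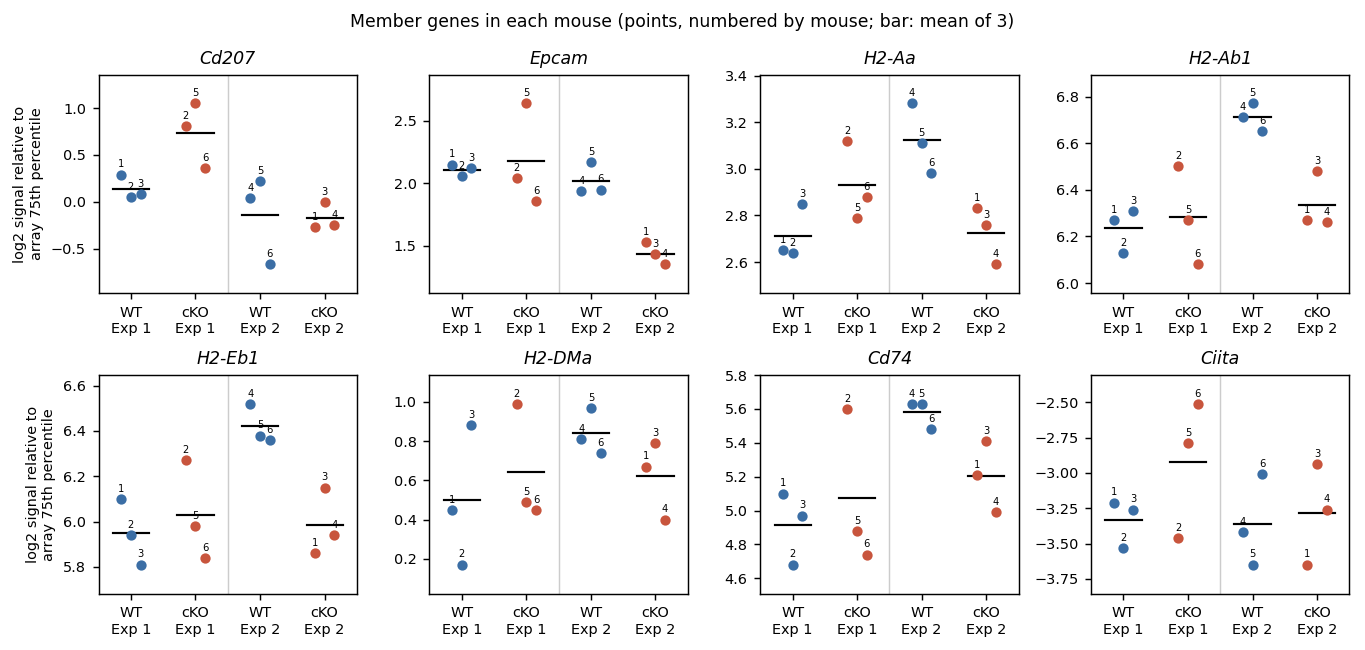
Log2 signal relative to the array's 75th percentile for the 8 genes in each of 12 mice (points, numbered by mouse, WT blue and cKO red), by genotype and experiment, with a bar at the mean of 3 mice. The WT mice of Exp 2 have the 3 highest values of H2-Ab1 and H2-Eb1, and the cKO mice of Exp 1 have the 3 highest values of Cd207.

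Cd207 was highest in the cKO skin of Exp 1. Its log2 level was 0.81, 1.05 and 0.36 in cKO mice 2, 5 and 6 of Exp 1 and 0.29, 0.05 and 0.08 in WT mice 1, 2 and 3 of the same experiment. In Exp 2 it was -0.27, 0.00 and -0.25 in cKO mice 1, 3 and 4 and 0.04, 0.22 and -0.67 in WT mice 4, 5 and 6. The cKO mice of Exp 1 thus lay above all 9 other mice, although cKO mouse 6 exceeded WT mouse 1 by little, while the groups of Exp 2 overlapped. Within cKO skin Cd207 was 1.89-fold higher in Exp 1 than in Exp 2 (log2 difference 0.92, SE 0.24, limma adjusted p = 0.040). The corresponding difference within WT skin was 0.28 (SE 0.24, adjusted p = 0.58). Between genotypes, cKO exceeded WT by 0.60 in Exp 1 (SE 0.24, adjusted p = 0.40) and differed by -0.04 in Exp 2 (SE 0.24, adjusted p = 0.99), and neither passed the threshold of 0.05. Averaged over both experiments the difference was 0.28 (SE 0.17, adjusted p = 0.53). In order of their means the groups were cKO Exp 1 (0.74 ± 0.35, SD, n = 3), WT Exp 1 (0.14 ± 0.13), WT Exp 2 (-0.13 ± 0.47) and cKO Exp 2 (-0.18 ± 0.15). WT Exp 2 overlapped both its neighbours in this order, while the mice of WT Exp 1 lay above those of cKO Exp 2.

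The call for Cd207 within cKO skin was lost in 19 of 26 alternative fits. With the slide as a block the difference was 1.01 (limma adjusted p = 0.094), within slide 1 it was 0.86 (adjusted p = 0.37) and within slide 2, with 1 cKO mouse of each experiment, it was 1.30 (adjusted p = 0.082). It also missed the threshold when WT mouse 1, 2, 3 or 4 or cKO mouse 1, 2, 3, 4 or 5 was left out (0.76 to 1.01, adjusted p = 0.054 to 0.11). The direction was the same in all 26 fits. Leaving out a WT mouse could not change this difference, only its error, so those fits are no check of its direction.

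Epcam was lowest in the cKO skin of Exp 2. Its log2 level there was 1.53, 1.43 and 1.35 in cKO mice 1, 3 and 4, against 1.94, 2.17 and 1.95 in WT mice 4, 5 and 6. In Exp 1 it was 2.04, 2.64 and 1.86 in cKO mice 2, 5 and 6 and 2.15, 2.06 and 2.12 in WT mice 1, 2 and 3. The 3 cKO mice of Exp 2 thus lay below all 9 other mice, and cKO mouse 5 stood above them. Within cKO skin Epcam was 1.67-fold higher in Exp 1 than in Exp 2 (log2 difference 0.74, SE 0.18, limma adjusted p = 0.033), and within WT skin the difference was 0.09 (SE 0.18, adjusted p = 0.83). The genotype difference in Exp 2 was -0.58 (SE 0.18, adjusted p = 0.77) and in Exp 1 0.07 (SE 0.18, adjusted p = 0.92). Averaged over both experiments it was -0.26 (SE 0.13, adjusted p = 0.45). The group means were 2.18 ± 0.41 in cKO Exp 1, 2.11 ± 0.05 in WT Exp 1, 2.02 ± 0.13 in WT Exp 2 and 1.44 ± 0.09 in cKO Exp 2 (SD, n = 3 each), and the first 3 differed by less than their spread.

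The Epcam call within cKO skin was lost in 10 of 26 alternative fits. The difference was 0.76 with the slide as a block (limma adjusted p = 0.095), 0.42 within slide 1 (adjusted p = 0.60) and 1.28 within slide 2 (adjusted p = 0.019), which holds 1 cKO mouse of each experiment, mice 5 and 4. It missed the threshold when cKO mouse 1, 2, 3 or 4 was left out (0.70 to 0.81, adjusted p = 0.052 to 0.10), and without cKO mouse 5 it was 0.51 (adjusted p = 0.049). The direction was the same in all 26 fits, but those without a WT mouse could not change it.

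The class II chains were highest in the WT skin of Exp 2, but no difference of theirs passed the test. H2-Ab1, the beta chain of H2-A, had log2 levels of 6.71, 6.77 and 6.65 in WT mice 4, 5 and 6 of Exp 2 and 6.27, 6.48 and 6.26 in cKO mice 1, 3 and 4 of that experiment. In Exp 1 they were 6.27, 6.13 and 6.31 in WT mice 1, 2 and 3 and 6.50, 6.27 and 6.08 in cKO mice 2, 5 and 6. The 3 WT mice of Exp 2 lay above the 9 others, with a mean of 6.71 ± 0.06 (SD, n = 3), and the other 3 groups, with means of 6.34 ± 0.13 (cKO Exp 2), 6.28 ± 0.21 (cKO Exp 1) and 6.24 ± 0.10 (WT Exp 1), overlapped. The difference between Exp 1 and Exp 2 was -0.47 within WT skin (SE 0.13, limma adjusted p = 0.092) and -0.06 within cKO skin (SE 0.13, adjusted p = 0.82). Between cKO and WT it was -0.37 in Exp 2 (SE 0.13, adjusted p = 0.96), 0.05 in Exp 1 (SE 0.13, adjusted p = 0.92) and -0.16 over both (SE 0.09, adjusted p = 0.50). The other probe of H2-Ab1 gave -0.49 within WT skin and -0.34 between genotypes in Exp 2.

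H2-Eb1, the beta chain of H2-E, had log2 levels of 6.52, 6.38 and 6.36 in the WT mice of Exp 2 and 5.86, 6.15 and 5.94 in the cKO mice of Exp 2. In Exp 1 its levels were 6.10, 5.94 and 5.81 in WT mice and 6.27, 5.98 and 5.84 in cKO mice. As for H2-Ab1, the WT mice of Exp 2 were the 3 highest of the 12. The difference between Exp 1 and Exp 2 within WT skin was -0.47 (SE 0.14, limma adjusted p = 0.11), and that between genotypes in Exp 2 was -0.44 (SE 0.14, adjusted p = 0.82). These values are RNA levels of the beta chain and do not show whether an H2-E pair was made.

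H2-Aa, the alpha chain of H2-A, had log2 levels of 3.28, 3.11 and 2.98 in the WT mice of Exp 2 and 2.83, 2.76 and 2.59 in the cKO mice of Exp 2. In Exp 1 it had 2.65, 2.64 and 2.85 in WT mice and 3.12, 2.79 and 2.88 in cKO mice. Here cKO mouse 2 of Exp 1 reached the range of the WT mice of Exp 2. The difference within WT skin was -0.41 (SE 0.13, limma adjusted p = 0.14), and that between genotypes in Exp 2 was -0.40 (SE 0.13, adjusted p = 0.89).

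Cd74, the invariant chain, gave the largest difference of the 8 genes between the experiments in WT skin. Its log2 level was 5.63, 5.63 and 5.48 in WT mice of Exp 2 and 5.10, 4.68 and 4.97 in WT mice of Exp 1, which did not overlap. In cKO skin it was 5.21, 5.41 and 4.99 in Exp 2 and 5.60, 4.88 and 4.74 in Exp 1, where cKO mouse 2 was high and the groups overlapped. Within WT skin the difference between Exp 1 and Exp 2 was -0.66 (SE 0.22, limma adjusted p = 0.14), and between genotypes in Exp 2 it was -0.37 (SE 0.22, adjusted p = 0.98). H2-DMa, the peptide editor's alpha chain, overlapped between all groups. Its levels were 0.45, 0.17 and 0.88 in WT mice of Exp 1 and 0.81, 0.97 and 0.74 in WT mice of Exp 2. In cKO mice they were 0.99, 0.49 and 0.45 in Exp 1 and 0.67, 0.79 and 0.40 in Exp 2. Its difference within WT skin was -0.34 (SE 0.21, adjusted p = 0.42).

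Within slides, the differences of H2-Ab1, H2-Eb1, H2-Aa and Cd74 between the experiments in WT skin were -0.55, -0.51, -0.37 and -0.80 on slide 1, and -0.41, -0.34, -0.47 and -0.45 on slide 2. The genotype differences in Exp 2 were -0.51, -0.52, -0.29 and -0.42 on slide 1 and -0.42, -0.51, -0.54 and -0.56 on slide 2, in the same order of genes. On slide 1, WT mouse 5 and cKO mouse 1 were the only mice of Exp 2. On slide 2, WT mouse 1 was the only WT mouse of Exp 1 and cKO mouse 4 the only cKO mouse of Exp 2. Each of these values thus has a single mouse in at least 1 of the groups compared. With the slide as a block none of these 8 differences passed the threshold in limma, with adjusted p from 0.13 to 0.97. The comparison between experiments in WT skin and the genotype comparison in Exp 2 share the 3 WT mice of Exp 2.

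Ciita, the coactivator of these genes, had no group in which all 3 mice stood apart. Its processed signal ran from 34.33 to 70.45 intensity units. The Sox4 probe used gave 20.68 to 92.21 units in cKO skin, and the 3 class II chains and Cd74 gave 2484 to 55750 over all mice. Whether so low a signal narrowed the differences of Ciita was not tested. The log2 levels of Ciita were -3.21, -3.53 and -3.26 in WT mice of Exp 1 and -3.42, -3.65 and -3.01 in WT mice of Exp 2. They were -3.46, -2.79 and -2.51 in cKO mice of Exp 1, where cKO mice 5 and 6 were the highest of the 12, and -3.65, -2.94 and -3.26 in cKO mice of Exp 2. The genotype difference was 0.42 in Exp 1 (SE 0.27, limma adjusted p = 0.57) and 0.08 in Exp 2 (SE 0.27, adjusted p = 0.99). Its difference between experiments was 0.02 within WT skin (SE 0.27, adjusted p = 0.98), where the 3 class II chains and Cd74 differed by -0.41 to -0.66.

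**Figure D2:**
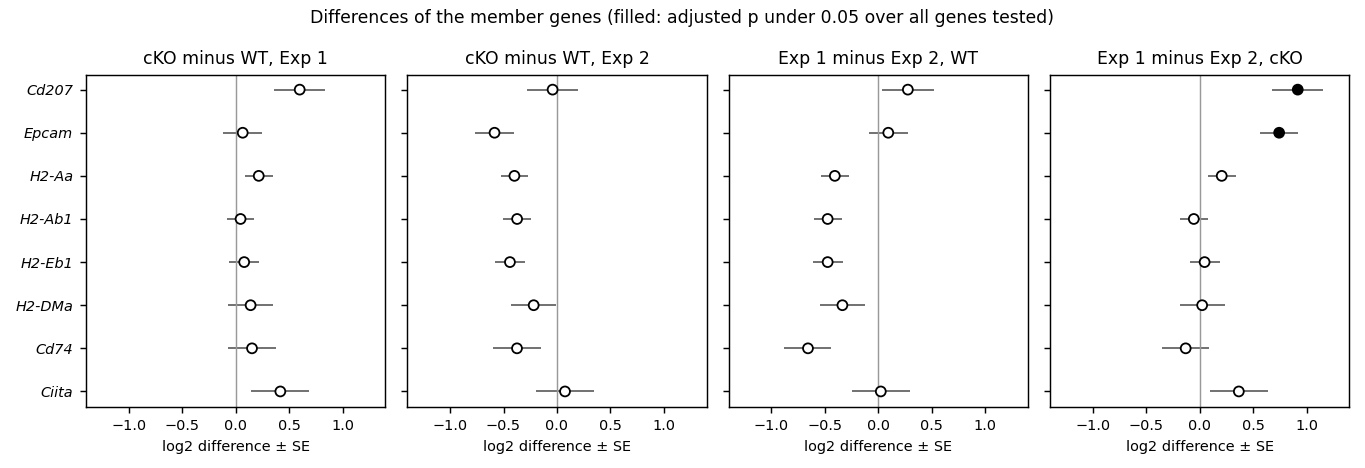
Log2 differences (points) with their standard errors (bars) for the 8 genes, for cKO minus WT in each experiment and for Exp 1 minus Exp 2 in each genotype, 3 mice per group. Filled points, Cd207 and Epcam within cKO skin, have a limma adjusted p under 0.05 over all genes tested.

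Over the 8 genes, limma called 0 between genotypes when the experiments were averaged, against 0.42% of all genes tested, 0 in Exp 1, against 0.117%, and 0 in Exp 2, against 0.0618%. At an unadjusted p under 0.05 the counts were 0 averaged (12.1% of all genes), 1 in Exp 1 (11.3% of all genes), which was Cd207, and 4 in Exp 2 (4.66% of all genes), which were Epcam, H2-Aa, H2-Ab1 and H2-Eb1. In Exp 2 the 3 cKO mice lay below the 3 WT mice for 5 of the 8 (Epcam, H2-Aa, H2-Ab1, H2-Eb1 and Cd74), a separation that 9.88% of all genes showed. In Exp 1 the cKO mice lay above the WT mice for 1 of the 8, Cd207, against 5.67% of all genes. The median difference of the 8 genes was 0.15 in Exp 1 and -0.37 in Exp 2, and that of all genes was -0.02 and -0.07.

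Between experiments within WT skin limma called 0 of the 8, against 0.84% of all genes, and 4 had an unadjusted p under 0.05 (H2-Aa, H2-Ab1, H2-Eb1 and Cd74), against 18.5%. The same 4 lay lower in all 3 WT mice of Exp 1 than in those of Exp 2, against 13.4% of all genes. Within cKO skin 2 of the 8 were called, both higher in Exp 1, where 9.97% of all genes were called, 5.37% of all genes as higher and 4.6% as lower. These 2, Cd207 and Epcam, were also the only members whose cKO groups did not overlap in that direction, which 17.4% of all genes showed. For the other 6 the differences within cKO skin ran from -0.13 for Cd74 to 0.37 for Ciita.

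The genotype difference was more positive in Exp 1 than in Exp 2 for each of the 8 genes, by 0.34 for Ciita to 0.65 for Epcam, with a median of 0.52 against 0.03 over all genes. In limma's test of this difference of differences 0 of the 8 passed, with an adjusted p of 1 each, against 0.00618% of all genes. At an unadjusted p under 0.05 there were 4, Epcam, H2-Aa, H2-Ab1 and H2-Eb1, against 3.16% of all genes. A difference of the genotype effect between the experiments was therefore not shown. Scaling the arrays to their median in place of the 75th percentile moved the median of all genes from 0.03 to 0.14 for this comparison, from -0.07 to -0.21 for the genotypes in Exp 2 and from -0.01 to -0.15 for the experiments in WT skin.

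Across the 12 mice, which share 4 groups and the array scaling, the class II genes correlated to different degrees. Pearson's r was 0.93 between H2-Ab1 and Cd74, 0.91 between H2-Ab1 and H2-Eb1 and 0.82 between H2-DMa and Cd74, and 0.91, 0.73 and 0.79 after the group means were removed. It was lower between H2-Eb1 and H2-DMa, at 0.53 (0.30 within groups), and between H2-Aa and H2-Eb1, at 0.73 (0.32 within groups). Cd207 and Epcam had r = 0.64 (0.61 within groups). Cd207 and H2-Ab1 had r = -0.19 across the mice and 0.57 within groups, so that the pattern across groups and that among mice of a group ran in opposite directions. Ciita had r of -0.21 to -0.40 with the class II chains, H2-DMa and Cd74. These are descriptions over 12 points, with no test.

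Among the other genes of class II presentation 1 was called. They encode the H2-DM beta chains, the H2-O regulator, the proteases that trim the invariant chain and antigens, and costimulatory molecules, and all 13 listed were tested. In limma 0 of 13 were called between genotypes, averaged or in either experiment, and 0 between experiments in WT skin, where at an unadjusted p under 0.05 there were 4 averaged, 3 in Exp 1, 1 in Exp 2 and 3 in WT skin (12.1%, 11.3%, 4.66% and 18.5% of all genes). Within cKO skin 1 of 13 was called, where 9.97% of all genes were. This was Lgmn, a lysosomal cysteine protease, whose level in Exp 1 was lower (log2 difference -0.54, SE 0.15, adjusted p = 0.044). Its level was 3.83, 3.86 and 3.86 in cKO mice of Exp 1 and 4.31, 4.48 and 4.38 in cKO mice of Exp 2. The median difference of the 13 was -0.17 within WT skin, where that of the 8 members was -0.37, and -0.01 between genotypes in Exp 2. Within WT skin 8 of the 13 were lower in Exp 1 and 5 higher. The 3 with an unadjusted p under 0.05 there were all higher, H2-Eb2 by 1.32, H2-DMb2 by 0.77 and Marchf1 by 0.68. The probes of H2-Eb2 and H2-DMb2 were well above background on only 7 and 8 of 12 arrays. The 7 factors that bind class II promoters (Rfx5, Rfxap, Rfxank, Nfya, Nfyb, Nfyc and Creb1) had 0 calls by limma in any of the 6 comparisons, and at most 1 of them had an unadjusted p under 0.05 in any.

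Of 16 other genes that Langerhans cells express, 14 were tested and 0 were called between genotypes or between experiments in WT skin. At an unadjusted p under 0.05 there were 4 between genotypes averaged, 4 in Exp 1, 2 in Exp 2 and 2 in WT skin, against 12.1%, 11.3%, 4.66% and 18.5% of all genes. The 4 averaged were Cd24a (-0.87), Itgax (-0.62), Irf8 (-0.47) and Mfge8 (-0.46), all lower in cKO skin (limma adjusted p = 0.083, 0.33, 0.27 and 0.057). The same 4 were those in Exp 1, where 11 of the 14 were lower in cKO skin and 3 higher (47.5% of all genes were higher). The median of the 14 there was -0.27, beside -0.02 for all genes, while Cd207 was higher by 0.60. Within cKO skin, where 9.97% of all genes were called, limma called 2 of the 14. It called Ahr, the aryl hydrocarbon receptor, as higher in Exp 1 by 1.16 (SE 0.22, adjusted p = 0.018) and Csf1r, the receptor for IL-34 and CSF1, as lower by -0.61 (SE 0.16, adjusted p = 0.039). Csf1r, which macrophages also express, was 4.19, 4.35 and 4.24 in cKO mice of Exp 1 and 4.88, 4.94 and 4.80 in those of Exp 2. Cd207 and Csf1r thus differed in opposite directions in the same 6 mice.

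Of 9 genes for signals that keep Langerhans cells in the epidermis, all tested, 2 were called within cKO skin, against 9.97% of all genes, and 0 in the other 5 comparisons, where 0 to 2 had an unadjusted p under 0.05. Il34, the keratinocyte cytokine on which Langerhans cells depend, was higher in Exp 1 by 1.11 (SE 0.23, limma adjusted p = 0.023). Its level was 2.45, 3.20 and 2.28 in cKO mice of Exp 1 and 1.39, 1.35 and 1.87 in cKO mice of Exp 2, with cKO mouse 5 highest as for Cd207. Itgb8, a subunit of an integrin that activates latent TGF-beta, was higher by 0.75 (SE 0.21, adjusted p = 0.048). The median of the 9 was 0.02 within cKO skin, beside 0.03 for all genes.

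**Figure D3:**
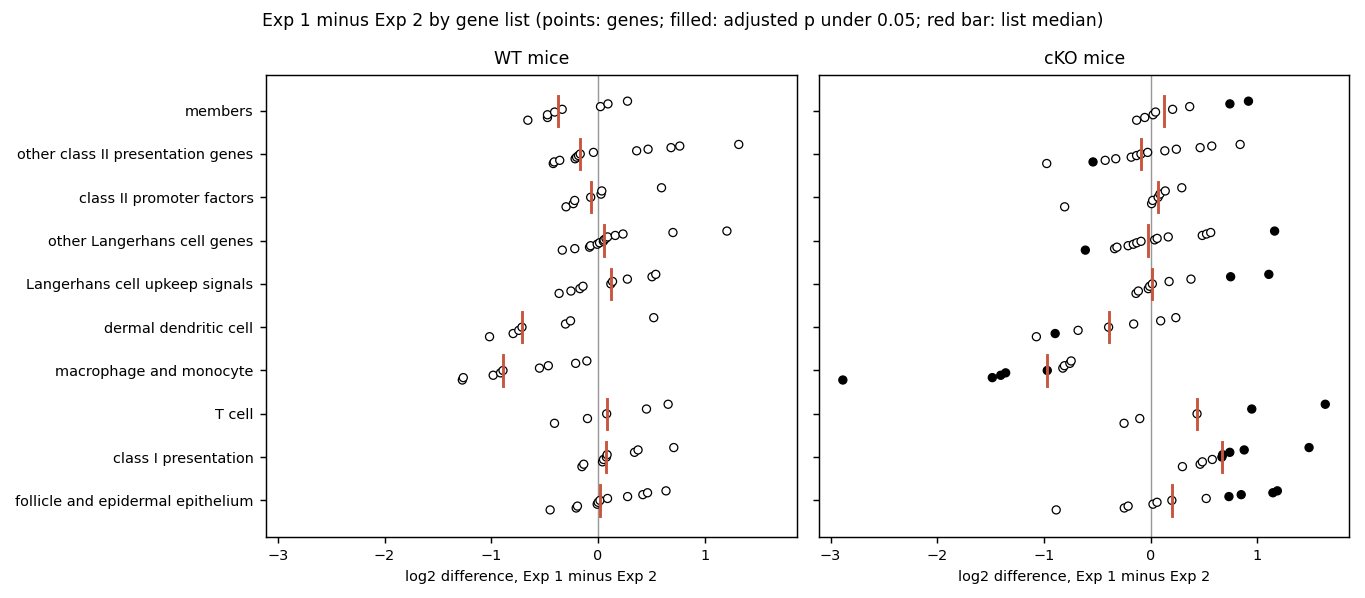
Log2 difference between Exp 1 and Exp 2 of each tested gene (points) in 10 gene lists, in WT mice (left) and cKO mice (right), with a red bar at the list's median and filled points at a limma adjusted p under 0.05. All 9 macrophage and monocyte genes lie below 0 in both genotypes, while of the 8 members 5 lie below 0 in WT and 2 in cKO mice.

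Markers of other cells that carry class II differed between the experiments as well. All 9 tested macrophage and monocyte genes were lower in Exp 1 in both genotypes, with a median of -0.89 in WT skin, where 0 were called and 5 had an unadjusted p under 0.05 (18.5% of all genes), and -0.97 in cKO skin, where 5 were called as lower (4.6% of all genes). C1qc, C1qa and C1qb, which encode complement C1q, fell by 1.41, 1.48 and 1.36 in cKO skin (SE 0.23, 0.27 and 0.27, limma adjusted p = 0.015, 0.017 and 0.021), and Cd163, a scavenger receptor, fell by 2.89 (SE 0.60, adjusted p = 0.023), with a probe well above background in 1 of 3 cKO mice of Exp 1 and 3 of 3 of Exp 2. Their mean level per mouse ran from -0.47 to 0.13 in WT Exp 1 and from 0.58 to 0.76 in WT Exp 2, where class II was the higher. It ran from -0.77 to -0.23 in cKO Exp 1 and from 0.52 to 0.90 in cKO Exp 2, while the mean of H2-Aa, H2-Ab1, H2-Eb1 and Cd74 overlapped there, at 4.88 to 5.37 and 4.94 to 5.20.

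Of 9 dermal dendritic cell genes 7 were tested, and their mean level was -0.38 to -0.04 in WT Exp 1, 0.16 to 0.29 in WT Exp 2, -0.43 to -0.20 in cKO Exp 1 and -0.03 to 0.22 in cKO Exp 2. Of these, Batf3, a transcription factor of cross-presenting dendritic cells, was called as lower in Exp 1 in cKO skin (-0.90, SE 0.23, limma adjusted p = 0.039), and Xcr1 and Clec9a, defining markers of those cells, did not pass the filter on dim probes. The defining B cell markers Ms4a1 and Pax5, with Blk, did not pass it either, and the 3 B cell genes tested had mean levels from -4.34 to -3.39 over all mice. The part of these cells in the class II values, and that of dermal dendritic cells in the Cd207 values, was not tested.

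Between genotypes in Exp 2, where class II was lower in cKO skin without passing the test, the mean of the macrophage genes overlapped, at 0.52 to 0.90 in cKO and 0.58 to 0.76 in WT mice. The mean of 5 tested T cell genes was -0.68 to -0.32 in cKO and 0.08 to 0.40 in WT mice of Exp 2. Between these 2 groups 4 of the 5 were lower in cKO skin and 1 was higher (36% of all genes were higher). In limma 0 of the 5 were called (0.0618% of all genes), and 3 had an unadjusted p under 0.05 (4.66% of all genes). Cd3d and Cd3g, subunits of the T cell receptor complex, were called as higher in Exp 1 within cKO skin, by 0.95 and 1.64 (SE 0.25 and 0.31, limma adjusted p = 0.043 and 0.018). Of all genes 5.37% were called as higher in that comparison. Of the 5 T cell genes 3 were higher there and 2 lower. The lower ones were Cd4 (mean 2.21 in Exp 1 and 2.46 in Exp 2) and Lck (-0.01 and 0.09). The muscle mean, like the class II mean, was higher in Exp 2 than in Exp 1 in WT skin (2.69 against -4.25, and 5.46 against 4.95), and its part in the class II values was not tested. WT mouse 5, with a muscle mean of -1.37, had a class II mean of 5.47, between the 5.53 and 5.37 of WT mice 4 and 6, whose muscle means were 4.28 and 5.15.

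**Figure D4:**
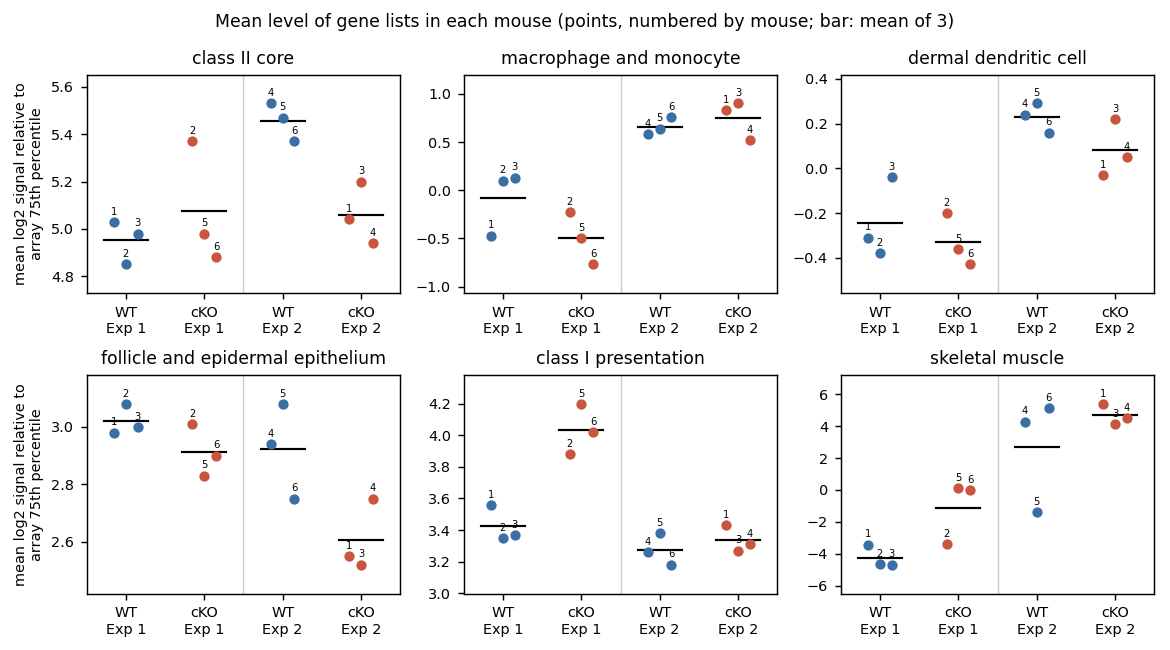
Mean log2 level, relative to the array's 75th percentile, of 6 gene lists in each mouse (points, numbered by mouse, WT blue and cKO red), with a bar at the mean of 3 mice; class II core is the mean of H2-Aa, H2-Ab1, H2-Eb1 and Cd74. WT mice of Exp 2 lie at 5.37 to 5.53 for class II, a value that 1 other mouse, cKO mouse 2 at 5.37, reaches.

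Of 11 epithelial genes tested, 4 were called as higher in Exp 1 within cKO skin, where Cd207 and Epcam were called too and 5.37% of all genes were called higher: Krt14 and Krt5, keratins of basal epidermis, by 1.15 and 0.73, Krt10, a keratin of differentiating epidermis, by 1.19, and Krt15, a keratin of follicle stem cells, by 0.85 (SE 0.27, 0.20, 0.31 and 0.19, limma adjusted p = 0.031, 0.045, 0.042 and 0.028). Of the other 7, 3 were lower without passing the test (Shh -0.89, Cldn7 -0.25 and Cldn4 -0.21), and the median of the 11 was 0.20. Krt14 was 7.27, 8.28 and 7.10 in cKO mice of Exp 1 and 6.46, 6.21 and 6.53 in cKO mice of Exp 2, with cKO mouse 5 highest, as for Cd207 and Epcam. Cldn7, a tight junction protein that binds EpCAM, was lower in cKO than in WT skin in Exp 2 by -0.97 (SE 0.14, adjusted p = 0.044) and over both experiments by -0.87 (SE 0.10, adjusted p = 0.0053). The muscle genes were lower in the same comparison within cKO skin, 8 of 10 called, against 4.6% of all genes. The part of epithelium and muscle in the Cd207 and Epcam values was not tested.

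Among the genes whose pattern over the 12 mice was most like that of Cd207, of all tested and by Pearson's r, were Plek2 (0.96), Fxyd3 (0.95), Rps6ka4 (0.95), Rassf7 (0.95) and Sft2d2 (0.95). Their differences within cKO skin ran from 0.30 for Sft2d2 to 0.72 for Plek2, below the 0.92 of Cd207. Those most like the mean of H2-Aa, H2-Ab1, H2-Eb1 and Cd74 were Ppp1r35 (0.92), Capzb (0.91), Lrrc41 (0.90), Arfgap1 (0.90), Ifitm2 (0.89) and Abcf2 (0.89). Within WT skin these 6 were lower in Exp 1, by -0.57 for Ppp1r35 to -0.24 for Arfgap1. The coefficients are the highest of many and carry no test.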

How the data were processed

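Intensities were read from the deposited scanner files, whose headers name Feature Extraction 11.5.1.1. The processed signal is an intensity after background subtraction, without scaling across arrays, and the well-above-background, saturation and outlier flags are 0 or 1, per the file headers. The authors also deposited a value table on a log2 scale, and the submitters' processing notes name limma. How it was background-corrected, centred and normalized is not stated in the sources used here, its columns have medians of 6.76 to 6.77, and it served as an alternative. Its column of cKO mouse 1 had r = 0.263 with that mouse's array, where the other 11 columns had 0.886 to 0.975 with their own.

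Spots flagged as outliers were left out, log2 signals were averaged per probe, and each array's 75th percentile over probes was subtracted. Probes were named through RefSeq transcripts (GRCm38.p6): 27503 of 55681 matched a symbol, and the other 28178 were left out. Probes well above background on at least 3 of 12 arrays were kept, with the brightest per gene (4128 genes had several). The 4 group means were fitted with limma 3.58.1 in R 4.3.3 (lmFit and eBayes, 8 residual and 2.3 prior degrees of freedom, 24 missing values), two-sided, with Benjamini-Hochberg adjustment over 16187 genes at 0.05. Errors of differences are SE and those of means SD, and the number of arrays limits the precision. The fit was tested on simulated data.

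The 8 genes and all lists were chosen with earlier results of these data known. From each list the called genes were named or, beyond 4, the 4 with the smallest p, and as alike the 6 genes with the highest r, of which 1 is not reported here. The alternatives were median scaling, normexp (offset 50) with quantile normalization, no filter or 12 of 12 arrays, the mean of probes, an intensity trend, the slide as a block or alone, the mouse number as a replicate block, the P1 or P2 tag of the array names, the value table, and each mouse left out. Normexp took the median spot signal, because the files hold no mean signal. The value table without cKO mouse 1, and the fit without WT mouse 5 and cKO mouse 5, were chosen after seeing the data.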

Additional observations from a re-analysis of the deposited data

How the results depend on the processing

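Each of 48 differences (8 genes in 6 comparisons) was refitted under 26 alternatives, 1248 fits in all, of which 1143 kept direction and side of the threshold, 29 lost a call and 76 changed sign, none of these past the threshold. The 2 calls within cKO skin became 0 with median scaling, the slide as a block, slide 1 alone, the array-name tag and the authors' value table. They became 1 with no filter, on slide 2 alone, with the value table less the column for cKO mouse 1, and without WT mouse 5 and cKO mouse 5. Leaving out 1 mouse at a time gave 0 to 2. By their labels, the WT and cKO mice numbered 1, 3, 5 and 6 came from different experiments, so the mouse numbers do not pair the samples. Deviations of same-numbered mice correlated at -0.26 to 0.072. The replicate block, which follows these numbers and so no pairing of the design, gave 0 calls among the 8 genes. On a slide alone some groups hold 1 mouse, assumed to vary like the others.

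All sign changes were in differences that passed no test, and their cause was not tested. With the authors' value table the averaged genotype differences of H2-Aa, H2-Ab1, H2-Eb1, H2-DMa and Cd74 were 0.24, 0.16, 0.19, 0.20 and 0.26, and those in Exp 2, with Cd207, were 0.20, 0.30, 0.37, 0.31, 0.35 and 0.44. With the column for cKO mouse 1 left out of the table, no difference changed sign. The table also gave differences of differences of -0.26 for H2-Ab1, -0.36 for H2-Eb1, -0.20 for H2-DMa, -0.16 for Cd74 and -0.012 for Ciita, and within cKO skin -0.27 for H2-Aa, -0.52 for H2-Eb1 and -0.42 for H2-DMa. On slide 1 the difference of Epcam between genotypes in Exp 1 was -0.14, those of Cd207 and Epcam within WT skin were -0.16 and -0.078, that of H2-Ab1 within cKO skin was 0.024 and that of Ciita in Exp 2 was -0.001. On slide 2 the genotype differences in Exp 1 of H2-Ab1, H2-Eb1 and Cd74 were -0.005, -0.12 and -0.22, those in Exp 2 of Cd207 and Ciita were 0.059 and -0.048, that of Ciita within WT skin was -0.002 and that of H2-Ab1 within cKO skin was 0.003. With the slide as a block H2-Ab1 within cKO skin was 0.015 and Ciita in Exp 2 was -0.048. Median scaling gave -0.066 for Ciita in Exp 2, -0.048 and -0.12 for Epcam and Ciita within WT skin and -0.005 for H2-DMa within cKO skin. Normexp gave -0.007 for H2-Eb1 in Exp 1. The replicate block gave 0.099 and 0.27 for H2-Ab1 and Cd74 within cKO skin and -0.08 for the Ciita difference of differences, and the array-name tag gave 0.017, 0.11 and -0.27 for the same 3. Without WT mouse 5 and cKO mouse 5 the values were 0.032 for H2-DMa averaged, -0.16 for Epcam in Exp 1, 0.14 and -0.071 for Cd207 and Ciita in Exp 2 and -0.12 for Ciita within WT skin.

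Leaving out 1 mouse at a time, the averaged difference of H2-DMa ran from -0.12 to 0.056. In Exp 1 that of Epcam ran from -0.16 to 0.23, H2-Ab1 from -0.064 to 0.15, H2-Eb1 from -0.039 to 0.17, H2-DMa from -0.032 to 0.33 and Cd74 from -0.11 to 0.32. In Exp 2 that of Cd207 ran from -0.31 to 0.14 and Ciita from -0.097 to 0.26. Within WT skin that of Ciita ran from -0.12 to 0.20. Within cKO skin those of H2-Ab1 ran from -0.17 to 0.047, H2-Eb1 from -0.073 to 0.14, H2-DMa from -0.15 to 0.12 and Cd74 from -0.40 to 0.037.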

Other observations

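The genes of MHC class I presentation, which all nucleated cells use, were measured beside class II, among them Nlrc5, which encodes a coactivator of class I genes. All 9 tested were higher in cKO than in WT skin over both experiments, with a median log2 difference of 0.35, but limma called 0 of 9 there, 0 in Exp 1 (median 0.60) and 0 in Exp 2 (median -0.001), and at an unadjusted p under 0.05 there were 7, 9 and 0, against 12.1%, 11.3% and 4.66% of all genes. The genotype difference was more positive in Exp 1 for 9 of 9, by a median of 0.53, beside 0.52 for the 8 class II and Langerhans genes, and limma called 0 in either (8 and 4 at an unadjusted p under 0.05, against 3.16% of all genes). Within cKO skin 5 of 9 were called as higher in Exp 1, against 5.37% of all genes, with a median of 0.67. Nlrc5 rose by 1.48 (SE 0.22, adjusted p = 0.011), Tap2 and Tap1, the peptide transporter, by 0.68 and 0.88 (SE 0.11 and 0.15, adjusted p = 0.014 and 0.016), and H2-K1, a class I heavy chain, by 0.74 (SE 0.16, adjusted p = 0.025). Nlrc5 had log2 levels of 2.42, 3.35 and 2.86 in cKO mice of Exp 1 and 1.56, 1.06 and 1.56 in those of Exp 2. In the same 6 mice Ciita had -3.46, -2.79 and -2.51 against -3.65, -2.94 and -3.26, which overlapped. Of 10 genes of interferon gamma signalling 9 were tested and 0 were called by limma in any of the 6 comparisons (0 to 4 at an unadjusted p under 0.05), with a median of 0.36 within cKO skin, and Ifng did not pass the filter on dim probes.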
